A study of Mus musculus with 2 samples.

Results

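Interferon-inducible genes and the factors and sensors that regulate them were examined as a set of 42 genes in the livers of 2 mice, 1 control and 1 Tmprss6-deficient. Members were chosen by gene symbol, and a gene was read only by probe sets that the platform annotation assigns to that symbol alone. Of the 42 genes, 40 had such a probe set, out of 18193 genes named on the array in all. Isg15 and Ifi44 had none and are not analysed here. Both mice were males aged 3 months with the strain label 129Sv/C57BL6, their livers were taken after an overnight fast, and each was hybridised to 1 Affymetrix Mouse 430 2.0 array. The deficient animal is labelled Tmprss6-/- and came from gene targeting, while the labels give no genotype for the control and do not say whether the animals were littermates. Tmprss6 encodes matriptase-2, a hepatocyte membrane protease that restrains the iron hormone hepcidin. Its own signal was 1867 in the control and 88.2 in the deficient liver, the direction the labels give, though the labels do not say which exons were deleted. Hamp, which encodes hepcidin, read 6589 and 17544. With a single array for each genotype no replicate error or p-value can be given, every difference is one between these 2 animals, and genotype, animal and array cannot be told apart.

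Type I interferons bind the IFNAR receptor and, through the kinases JAK1 and TYK2, activate a transcription factor complex that holds STAT2 and IRF9 and switches on genes carrying an interferon-stimulated response element (ISRE). Interferon gamma acts through its own receptor and on gamma-activated sites (GAS), and its typical targets include the immunity-related and guanylate-binding GTPases. Many inducible genes respond to both, so the grouping into type I targets, gamma-type GTPases and regulators is one of convention. In liver, hepatocytes and resident macrophages (Kupffer cells) both carry interferon receptors and keep a low tonic level of these transcripts in the absence of infection. In bulk tissue, fewer cells of a type and less RNA per cell cannot be told apart.

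Most of the interferon-inducible genes had a lower signal in the liver without Tmprss6. Signals were scaled to a common trimmed mean, a floor of 17.8 stood in for detection, and each gene was represented by the set with the highest mean log2 signal. Of 40 genes read, 29 reached the floor on both arrays, 7 only in the control, 1 only in the deficient liver and 3 on neither. Among the 29, the deficient liver was lower in 26, where the background over the 10243 named genes above the floor on both arrays was 50.9%. It was lower by 1.5-fold or more in 21 (background 8.34%) and by 2-fold or more in 9 (2.41%). In 1 of the 29, Oas2, it was higher by more than 1.5-fold (7.54%) and also by more than 2-fold (2.01%). Counting also the genes above the floor on 1 array, for which a ratio is only a bound against the floor, 33 of 37 were lower by any amount and 25 by 1.5-fold or more, where the backgrounds over 12243 genes were 50.2% and 9.13%, and 1 was higher (8.85%). At 2-fold, 12 were lower (background 2.78%) and 1 was higher (2.39%). Their median log2 ratio (Tmprss6-deficient over control) was -0.74, and that of all 12243 genes was -0.003. A gene that passed the floor in the control alone had to be lower, so the counts over both arrays are the plainer description.

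As the sole measure of error, the ratios of different probe sets for 1 gene were set against each other, which leaves out variation between animals. The SD of this probe set spread, in log2, was 0.46 for mean signals under 64, 0.37 for 64 to 256, 0.32 for 256 to 1024 and 0.18 for brighter sets. Beyond 2 SD of the spread at their own signal, 17 of the 29 genes were lower and 1 was higher, and the backgrounds were 5.37% and 4.21%. The difference was not limited to dim probe sets. Of 22 members with a mean signal of 64 or more, 18 were lower by 1.5-fold or more and 0 higher (median -0.84), where the shares over all genes of that signal were 6.50% and 5.57%. Of 15 dimmer members 7 were lower and 1 was higher (median -0.57), where the shares were 13.1% and 13.8%.

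**Figure D1:**
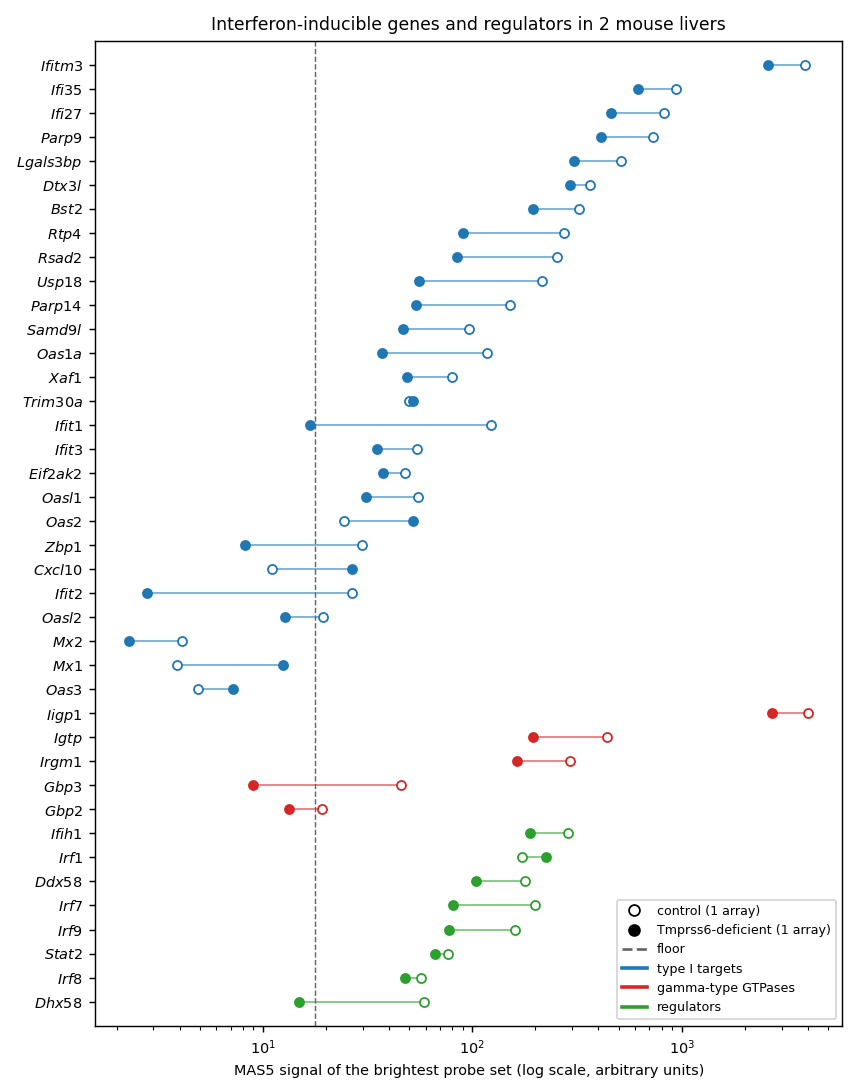
Signal of the brightest probe set of the 40 named genes (log axis, arbitrary units), control as open and Tmprss6-deficient as filled circles, 1 array each, with the floor of 17.8 dashed and colours marking the 3 classes. Filled circles lie to the left of open ones for most genes above the floor, and Oas2, Cxcl10, Trim30a and Irf1 are the exceptions among the 37 genes measured.

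Promoter windows of 6 members that were lower by 1.5-fold or more are shown, with matches to letter patterns of the ISRE and GAS marked. They are from RefSeq (GRCm38.p6), 300 bases from 250 before to 50 after the annotated start, 5′ to 3′ in the direction of the gene. Shown are the 6 genes with the largest ratios whose measured probe sets all passed 1.5-fold, among those with a window and a match. Of these, Ifit1 and Gbp3 have only bounds, and Usp18, Rtp4 and Parp14 had no window. Capitals mark matches on either strand to an ISRE-like pattern, which is GAAA, then 2 bases of any kind, then GAAA again, or to a GAS-like pattern, TTCNNNGAA, which reads the same on both strands. Ifit1 (chr19:34640639-34640938, plus strand), Gbp3 (chr3:142559794-142560093, plus) and Igtp (chr11:58199306-58199605, plus) run in the forward direction, and on the minus strand lie Oas1a (chr5:120907476-120907775), Rsad2 (chr12:26456403-26456702) and Irgm1 (chr11:48871371-48871670).
Ifit1: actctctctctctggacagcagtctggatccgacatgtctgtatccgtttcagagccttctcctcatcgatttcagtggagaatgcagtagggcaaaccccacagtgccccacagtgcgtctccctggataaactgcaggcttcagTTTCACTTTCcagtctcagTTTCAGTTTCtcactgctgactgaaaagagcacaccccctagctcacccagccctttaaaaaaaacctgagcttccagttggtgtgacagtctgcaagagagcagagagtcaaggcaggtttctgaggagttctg
Oas1a: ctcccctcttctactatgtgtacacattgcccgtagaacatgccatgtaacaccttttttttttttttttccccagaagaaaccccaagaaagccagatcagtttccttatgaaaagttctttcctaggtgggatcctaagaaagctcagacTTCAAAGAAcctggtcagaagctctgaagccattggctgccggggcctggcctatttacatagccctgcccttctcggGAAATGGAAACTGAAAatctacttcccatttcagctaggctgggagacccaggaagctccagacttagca
Rsad2: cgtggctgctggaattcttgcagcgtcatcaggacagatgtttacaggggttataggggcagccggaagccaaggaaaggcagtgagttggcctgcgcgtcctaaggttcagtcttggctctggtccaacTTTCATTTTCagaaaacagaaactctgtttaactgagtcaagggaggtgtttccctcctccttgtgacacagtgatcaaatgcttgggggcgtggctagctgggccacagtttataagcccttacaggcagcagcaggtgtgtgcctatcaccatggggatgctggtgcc
Gbp3: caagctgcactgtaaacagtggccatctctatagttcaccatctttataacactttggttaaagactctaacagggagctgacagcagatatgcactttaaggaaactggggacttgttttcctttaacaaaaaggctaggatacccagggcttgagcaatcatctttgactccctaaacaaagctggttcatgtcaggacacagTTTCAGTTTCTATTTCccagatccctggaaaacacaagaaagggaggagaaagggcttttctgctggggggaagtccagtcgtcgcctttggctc
Igtp: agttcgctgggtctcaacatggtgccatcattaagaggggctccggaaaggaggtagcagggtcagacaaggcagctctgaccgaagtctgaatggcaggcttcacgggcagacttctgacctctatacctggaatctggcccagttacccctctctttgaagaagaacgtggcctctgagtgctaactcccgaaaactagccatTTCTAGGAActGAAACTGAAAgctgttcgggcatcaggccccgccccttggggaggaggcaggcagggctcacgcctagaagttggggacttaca
Irgm1: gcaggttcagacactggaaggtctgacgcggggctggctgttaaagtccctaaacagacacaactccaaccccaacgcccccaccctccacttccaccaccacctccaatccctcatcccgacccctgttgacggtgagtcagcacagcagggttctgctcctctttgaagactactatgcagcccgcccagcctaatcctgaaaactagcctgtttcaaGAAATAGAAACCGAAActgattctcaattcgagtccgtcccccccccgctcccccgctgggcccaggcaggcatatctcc

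In Ifit1 the ISRE-like matches lay from 104 to 95 and from 85 to 76 bases before the start. Matches in the other windows were also close to it, from 45 to 30 bases before for the overlapping pair in Gbp3, 34 to 25 in Igtp, 30 to 15 for the overlapping pair in Irgm1 and 20 to 5 for that in Oas1a, and in Rsad2 the match lay at 120 to 111. GAS-like matches stood in Igtp at 45 to 37 and in Oas1a at 98 to 90 bases before the start. Of 31 members with a window, 18 (58.1%) held the ISRE-like pattern, against 3.99% of 27025 genes with a window of the same length, and 9 (29.0%) held the GAS-like pattern, against 9.55%. By class, the ISRE-like pattern was found in 11 of 20 type I targets, 4 of 4 GTPases and 3 of 7 regulators, and the GAS-like pattern in 6, 1 and 2 of them. Differences between measured members with and without a pattern were not tested. Of 16 with the ISRE-like pattern, 11 were lower by 1.5-fold or more (median log2 ratio -0.69), and of 12 with a window but no match 7 were lower (median -0.66). For the GAS-like pattern the counts were 5 of 9 with it (median -0.59) and 13 of 19 without (median -0.74). A match is a run of letters, not a measured binding site.

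Among the type I targets, 24 of 29 genes could be measured, 19 of them on both arrays. Of the 24, 17 were lower by 1.5-fold or more (background 9.13%) and 1 was higher (8.85%), with a median log2 ratio of -0.74. Of the 19, 15 were lower (background 8.34%) and 1 was higher (7.54%), also with a median of -0.74. The IFIT genes, which encode proteins that bind foreign RNA and block its translation, were dim, and Ifit3 alone was above the floor on both arrays. Ifit1 read 123 in the control and 16.7 in the deficient liver, under the floor, and was therefore at least 6.91-fold lower. Ifit3 read 54.3 and 34.9 and was 1.55-fold lower, a difference within 2 SD of the probe set spread at that signal. Ifit2 read 26.5 and 2.80, which gives only a bound of at least 1.49-fold lower.

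Usp18, the protease that removes ISG15 from proteins and damps signalling at the IFNAR receptor, read 215 and 55.8. It was 3.85-fold lower, the largest ratio among the 29 members above the floor on both arrays. Rsad2, which encodes the antiviral radical SAM enzyme viperin, read 254 and 84.7 on its brightest set and was 2.99-fold lower, with its dimmer sets lower too, by 2.31-fold and 1.73-fold. Rtp4, encoding a zinc-finger protein that dampens the interferon response, read 274 and 90.0 and was 3.05-fold lower, and its other set was under the floor on both arrays.

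The oligoadenylate synthetases, which make the messenger that activates RNase L on double-stranded RNA, did not share a direction. Oas1a read 117 and 37.2 and was 3.14-fold lower, and Oasl1, an OAS-like gene, read 54.8 and 31.2 and was 1.75-fold lower, within 2 SD of the spread at its signal. Oas2 read 24.5 and 52.3, 2.14-fold higher in the deficient liver, and was the 1 member that was higher by 1.5-fold or more. This rests on 1 probe set near the floor, and the spread there was 0.46 against its log2 ratio of 1.10. Oasl2 read 19.3 and 12.8, at least 1.08-fold lower, and Oas3 lay under the floor at 4.90 and 7.21. The dynamin-like GTPase genes Mx1 (3.90 and 12.4) and Mx2 (4.10 and 2.30) were likewise under it on both arrays and have no ratio.

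The ADP-ribosyltransferase genes Parp14 and Parp9, both lower, differed in size. Parp14 read 152 and 53.9, 2.82-fold lower, with its other set under the floor, and Parp9 read 732 and 410, 1.79-fold lower. Dtx3l, the ubiquitin ligase partner of PARP9, read 366 and 291 on its brightest set and 259 and 268 on the other, so its sets pointed in opposite directions and neither reached 1.5-fold. Samd9l, an antiviral and growth-restraining gene, read 96.6 and 46.4 and was 2.08-fold lower. Xaf1, encoding a binding partner of the apoptosis inhibitor XIAP, read 79.6 and 48.7, 1.63-fold lower and within 2 SD of the spread, and its other set, which dropped out in the deficient liver, gave a bound of at least 2.32-fold lower.

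Ifitm3, Bst2, Lgals3bp and Ifi27 had mean signals above 64, where the spread is narrower than for dimmer sets. On their brightest sets they were at most 1.79-fold lower. Ifitm3, which hinders viral entry at endosomes, read 3882 and 2583, and its log2 ratio of -0.59 was just past the threshold. That call was lost with quantile normalization (-0.53), with loess (-0.52) and with the floor added to every signal (-0.58). Bst2 (tetherin, which holds budding virions at the cell surface) read 324 and 194, and Lgals3bp, a secreted glycoprotein that binds galectin-3, read 510 and 305. Both of these were 1.67-fold lower, beyond 2 SD of the spread. Ifi27, which encodes a small mitochondrial protein, read 818 and 458 and was 1.79-fold lower, and its other set (716 and 330) was 2.17-fold lower.

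Other type I targets gave weaker or mixed readings. Ifi35, whose product dimerises with NMI, read 938 and 615 on its brightest set, 1.53-fold lower and within 2 SD of the spread at that signal. Its other sets were 1.40-fold and 1.10-fold lower. Eif2ak2 (PKR, the kinase that halts translation on double-stranded RNA) read 47.5 and 37.4, 1.27-fold lower on its brightest set and 1.64-fold and 2.30-fold lower on the others, all 3 at similar low signals. Trim30a, a ubiquitin ligase gene, read 49.8 and 52.3 on one set and 41.0 and 28.7 on the other. Zbp1, the sensor of Z-form nucleic acid, was at least 1.67-fold lower on its brightest set (29.8 and 8.21) and at least 1.48-fold higher on the other (5.20 and 26.3), so no direction can be given for it. The chemokine gene Cxcl10 read 11.1 and 26.5 and was at least 1.49-fold higher, on 1 set near the floor.

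The gamma-type GTPases, which attack the vacuoles of intracellular pathogens, were above the floor on both arrays at 3 genes. All were lower (background 50.9%), 2 of them by 1.5-fold or more (8.34%). A further 2 passed it in the control only, which fixes their direction, and the median log2 ratio of the 5 was -0.84. Igtp (Irgm3) read 439 and 195 and was 2.25-fold lower, and Irgm1, a regulator of the other immunity-related GTPases, read 292 and 163 and was 1.79-fold lower. Iigp1 (Irga6), an effector of that family, read 4024 and 2683 on its brightest set, a log2 ratio of -0.58 that falls just short of 1.5-fold, and 1694 and 1087 on the other, 1.56-fold lower. All 3 immunity-related GTPases lay beyond 2 SD of the spread at their signal. The guanylate-binding genes had only bounds, since Gbp3 read 45.4 and 9.01 and was at least 2.55-fold lower, and Gbp2 read 19.1 and 13.3 and was at least 1.07-fold lower.

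Among the 8 regulators, 5 were lower and 0 higher by at least 1.5-fold (backgrounds 9.13% and 8.85%), with a median log2 ratio of -0.69. Of the 7 above the floor on both arrays, 4 were lower and 0 higher (backgrounds 8.34% and 7.54%), with a median of -0.60. The transcription factors were split. Irf7, the factor that amplifies type I interferon production, read 198 and 81.0 and was 2.44-fold lower, and Irf9, the DNA-binding subunit of the ISRE complex, read 159 and 77.2 and was 2.06-fold lower. Irf1, a factor that interferon gamma induces, read 172 and 225, a log2 ratio of 0.39 within 2 SD of the spread. Irf8, a factor of myeloid cells, read 57.0 and 47.9 on one set and 48.4 and 56.1 on the other. Stat2, another ISRE complex subunit, read 76.2 and 66.6 on its brightest set and 72.3 and 33.2 on the other, log2 ratios of -0.19 and -1.12, so its reading depends on the probe set.

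The 3 cytoplasmic RNA sensors were lower by 1.5-fold or more, although Dhx58 passed the floor in the control only. Dhx58 (LGP2, which tunes the other sensors) read 58.7 and 14.9 and was at least 3.29-fold lower, and another set read 26.7 and 10.4. Ddx58 (RIG-I) read 179 and 104, 1.71-fold lower, and a second set was 1.73-fold lower (40.8 and 23.6), while its dimmest set (16.9 and 21.2) was at least 1.19-fold higher. Ifih1 (MDA5, the sensor of long double-stranded RNA) read 286 and 189 and was 1.52-fold lower, within 2 SD of the spread.

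The 3 classes had medians of -0.74, -0.84 and -0.69, and their ranges overlapped, from -2.79 to 1.10 in type I targets, -1.35 to -0.10 in GTPases and -1.72 to 0.39 in regulators. The lowest value of each class (Ifit1, Gbp3 and Dhx58) and the highest of the GTPases (Gbp2) are bounds from genes above the floor in the control only. With 1 array per group, a difference between classes was not tested.

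**Figure D2:**
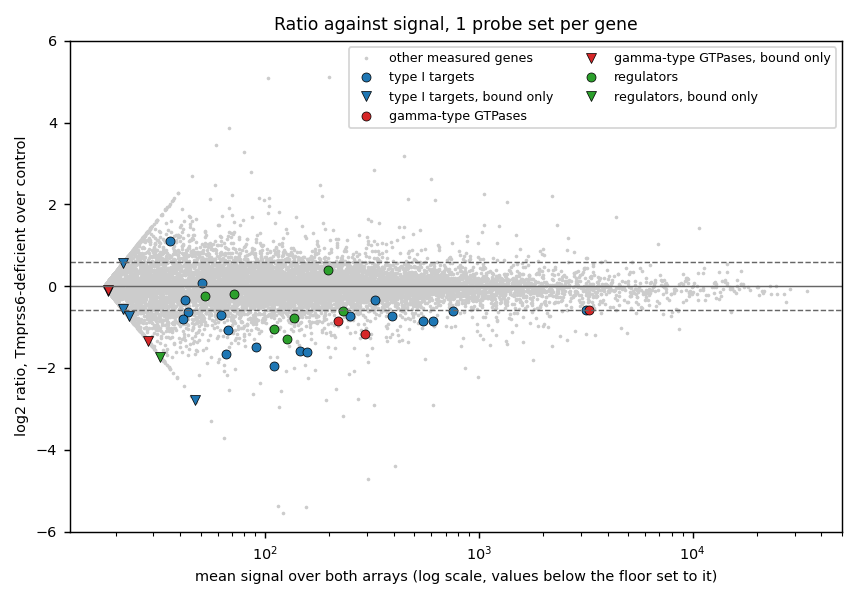
Log2 ratio of Tmprss6-deficient over control against mean signal (log axis) for the 12243 measured genes, with members coloured by class, triangles for bounds and dashed lines at 1.5-fold. Most members lie below 0 over the whole range of signal, from Ifit1 at -2.79 (a bound) to Oas2 at 1.10.

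Further probe sets gave a partial check. Of 13 members with at least 2 measured sets, 8 had all of them in 1 direction, and the exceptions were Dtx3l, Trim30a, Zbp1, Irf8 and Ddx58. Of the 17 sets other than the brightest, 13 were lower, 9 of them by 1.5-fold or more, and 0 were higher by that amount. Over the 5333 named genes with a second measured set, that set was lower by 1.5-fold or more in 8.63% and higher in 12.3%. Among the members lower by 1.5-fold or more, 7 had such sets, and 5 of their 10 other sets passed 1.5-fold too. Over all 407 named genes that were lower by that amount and had a second measured set, that one set passed 1.5-fold for 114, a count per gene and not per set. For 24 members 1 probe set carries the reading.

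**Figure D3:**
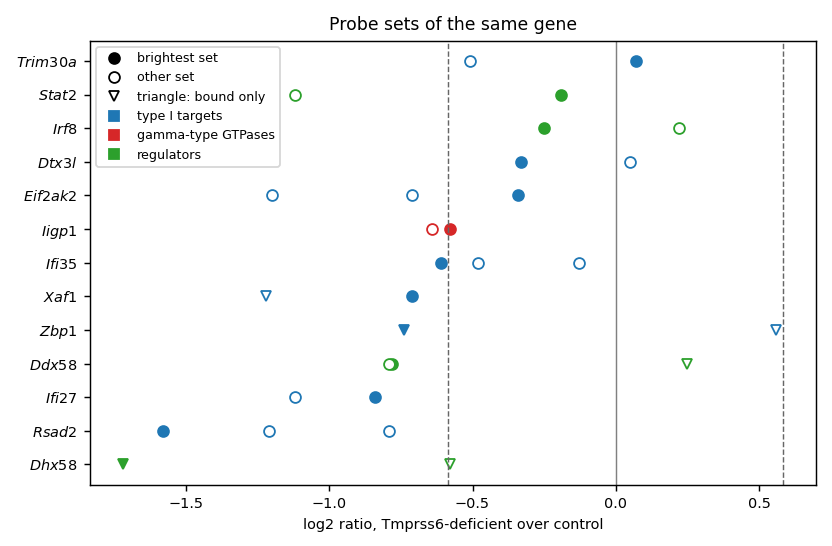
Log2 ratios of every measured probe set for the 13 members with at least 2 of them, the brightest filled and others open, triangles for bounds, dashed lines at 1.5-fold. Rsad2, Ifi27 and Iigp1 have all sets on 1 side, and Zbp1 has sets on both.

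Receptors, kinases and adaptors upstream of these genes had ratios centred near 0. Of 18 genes for interferons and inducing cytokines, 12 were named and 9 of those were under the floor on both arrays, among them those for the main ligands, Ifnb1 (0.600 and 0.801) and Ifng (6.99 and 2.30). Of the 3 measured, Ifna1 read 33.5 and 25.3, Ifna2 read 33.1 and 25.3, and Il18, a cytokine that induces interferon gamma, read 131 and 133. The log2 ratios of Ifna1 and Ifna2, -0.40 and -0.39, were smaller than the spread of 0.46 at their signal, and probes of this family may be shared. Receptor and JAK-STAT genes had a median log2 ratio of -0.04 over 15 measured genes. By 1.5-fold or more, 1 was lower (6.67%, background 9.13%) and 0 were higher (8.85%). The type I receptor chains read 154 and 159 for Ifnar1 and 933 and 995 for Ifnar2, and the gamma receptor chains read 120 and 109 for Ifngr1 and 84.4 and 77.5 for Ifngr2, all within the spread on their brightest sets. Dimmer sets of Ifnar1 and Ifngr2 had log2 ratios of -0.47 and 0.32, and those of Ifnar2 had 0.41 and -0.03. The gene that was lower, Socs3, a feedback inhibitor named after its value was seen, read 108 and 52.1 on its brightest set and was level on its others (59.5 and 62.5, 38.7 and 38.6).

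Genes of nucleic acid sensing and interferon induction outside the 42 had a median of -0.08 over 18 measured genes. The sensors Ifih1, Ddx58 and Dhx58 and the factor Irf7, all lower, are counted among the members instead. By 1.5-fold or more, 2 of the 18 were lower and 2 higher (11.1% each), near the backgrounds of 9.13% and 8.85%. Zc3hav1, the antiviral protein ZAP and itself interferon-inducible, was 1.63-fold lower on its brightest set (269 and 165), with its other measured set in the opposite direction. Named after their values were seen, the other 3 were dim, with Ikbke at 42.3 and 24.7, Tlr3 at 19.0 and 34.1, and Traf6 at least 3.06-fold higher with its sets in disagreement. Of 2 further genes picked with their values known, Mavs, the adaptor of the RNA sensors, read 569 and 655, and Irf3, the factor activated downstream, read 439 and 369 with its sets in disagreement.

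Of 61 listed inducible genes outside the 42, 37 were measured and 20 of these were within 1.5-fold. In the deficient liver 14 were lower (background 9.13%) and 3 higher (8.85%), with a median of -0.29. The immunity-related GTPase genes Irgm2 (257 and 60.7) and Ifi47 (206 and 62.3) were 4.23-fold and 3.30-fold lower. Nmi, the partner of IFI35, read 218 and 111 and was 1.97-fold lower, and Parp12 read 255 and 146 and was 1.74-fold lower. Ly6e, a membrane-anchored inhibitor of viral entry, read 1520 and 669, 2.27-fold lower, while its dim set was 1.45-fold higher. The 3 higher genes were Ifitm1 (103 and 160), a relative of Ifitm3, Ifi27l2b (28.4 and 74.8) and Uba7 (29.8 and 52.8, with its sets in disagreement), the last pair named after their values were seen.

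**Figure D4:**
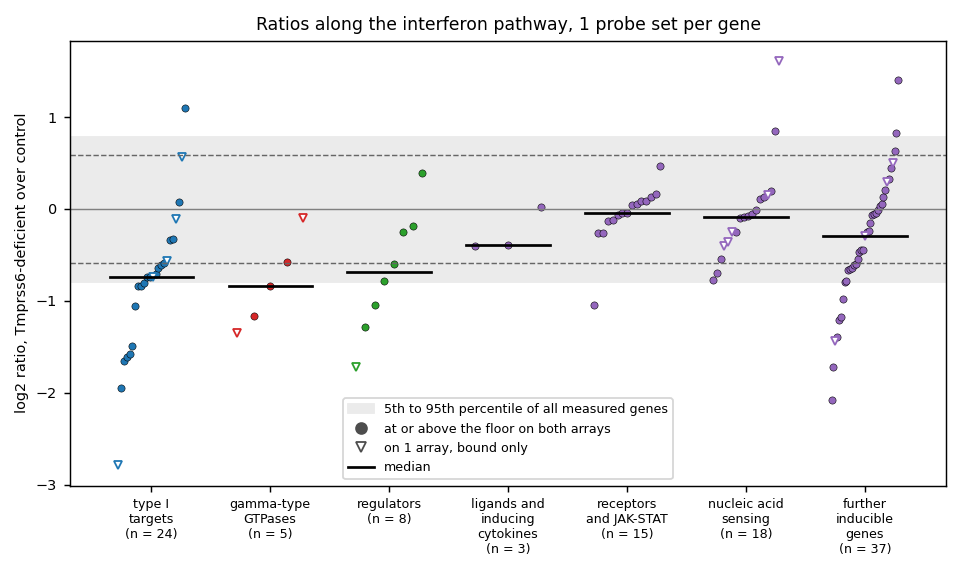
Log2 ratios of measured genes in the 3 member classes and in 4 other lists of the pathway, with black bars for medians, triangles for bounds, dashed lines at 1.5-fold and grey for the 5th to 95th percentile of all measured genes (-0.79 to 0.78). The member classes centre on -0.74, -0.84 and -0.69. Of the other lists, the 3 measured ligand and cytokine genes centre on -0.39 and further inducible genes on -0.29. Receptors with JAK-STAT genes and sensing genes centre on -0.04 and -0.08.

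Several macrophage markers were lower too. Of 14 markers of Kupffer cells and macrophages, all measured, 9 were within 1.5-fold, 4 were lower (background 9.13%) and 1 was higher (8.85%). The median log2 ratio was -0.40, and their summed signal was 4734 in the control and 3469 in the deficient liver. Clec4f and Vsig4, which mark Kupffer cells, read 633 and 361 and 523 and 304, C1qb read 397 and 211, and Csf1r and Cd5l read 1173 and 883 and 487 and 403. The fourth lower marker was the dim Timd4 (28.4 and 15.8), named after its value was seen. It passed the floor in the control only, which fixes its direction. Of the 13 markers above the floor on both arrays, 3 were lower (background 8.34%) and 1 was higher (7.54%). The higher marker, Marco, read 77.2 and 136. The part of these cells in the result was not tested.

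Lymphocyte markers were at or near the floor. Of 14 named markers of T and NK cells, 8 were under it on both arrays, including Cd3d, Cd3e and Cd3g, and 0 were above it on both. Cd8a (11.2 and 27.7) and Prf1 (15.7 and 29.7), named like Ly6d after their values were seen, were at least 1.56-fold and 1.67-fold higher. Summed signals were 158 and 137 for this list, 72.5 and 92.4 for 5 named B cell markers and 207 and 194 for 9 named neutrophil markers. Siglech, the defining marker of plasmacytoid dendritic cells, which are a main source of type I interferon, was under the floor on both arrays. Those cells' 7 markers summed to 538 and 595, of which 412 and 492 came from Atp1b1, a gene of many cell types. Another of them, Ly6d (57.7 in the control and just under the floor in the deficient liver), was at least 3.24-fold lower. For 10 endothelial markers the median was 0.24, and 5 passed 1.5-fold, 3 upwards (background 8.85%) and 2 downwards (9.13%). Lyve1, the lymphatic and sinusoidal hyaluronan receptor, had the largest ratio in any marker list, at 32.3 and 152 (4.72-fold higher, both sets in 1 direction). Egfl7 read 98.0 and 188, with its sets in disagreement, and Oit3 read 95.8 and 151. Clec4g (517 and 261) and Kdr (149 and 96.4) were lower, and Stab2 read 324 and 357. For 8 hepatocyte markers the median was -0.10, with 1 higher (background 8.85%), Hnf4a (3145 and 4853). Alb at 29324 and 27870 fits the tissue label.

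**Figure D5:**
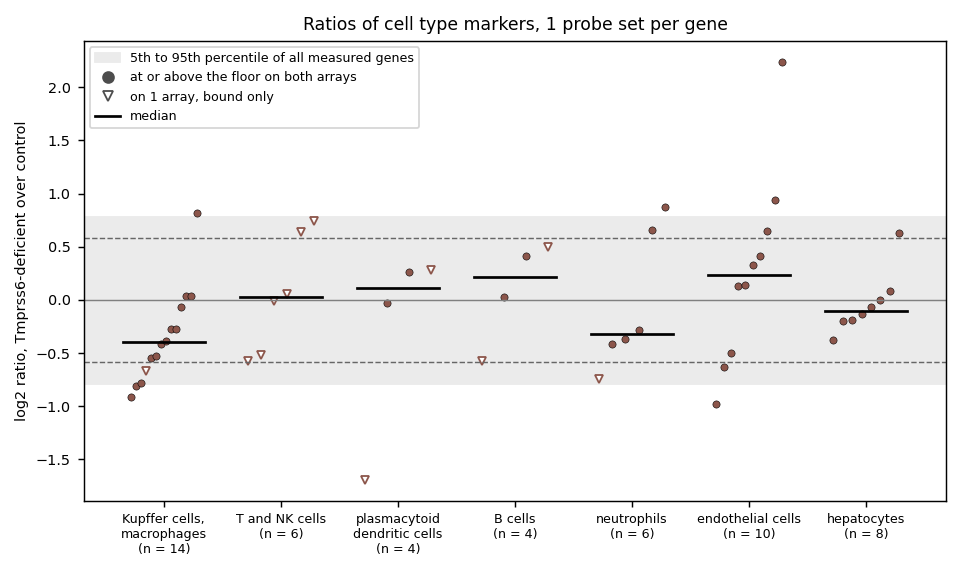
Log2 ratios of measured cell type markers, with black bars for medians, triangles for bounds, dashed lines at 1.5-fold and grey for the 5th to 95th percentile of all measured genes. Markers of Kupffer cells and macrophages centre on -0.40 and those of hepatocytes on -0.10.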

How the data were processed

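Liver RNA of 2 mice was purified with a column kit, and biotin-labelled for 1 array per mouse, as the labels' protocols describe, and the arrays were grouped by title. The deposited values are linear signal intensities from 0 to 42541, 1 per probe set and array, made by the authors with MAS5, per the submitters' processing notes. For its version, scaling and detection calls the sources used here give nothing. MAS5 summarises each array alone, and its low signals are noisy.

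Of 45101 probe sets, 34958 had 1 gene symbol in the platform annotation, 932 had several and stayed unnamed, and 9211 were not listed. Both arrays were scaled to the same mean after trimming 2% at each end (98.9 and 98.7 before scaling, without the 64 control sets). Signals below the floor, the median of both arrays, were raised to it before taking log2. Related genes, such as the Gbp, Irgm, Oas, Ifit and Ifitm families, may share probes, which makes their values uncertain. Calls were made at 1.5-fold. No test was possible. Only the ratio calculation was checked, on a simulated second array made from the control by known folds with added noise. That noise was smaller than the probe set spread, and the changed genes had control signals above 64. The check therefore does not cover genes near the floor or variation between animals. RefSeq names and promoter windows are of GRCm38.p6. The array values carry no build.

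The members and all lists were chosen with earlier results of these data known, so counts are descriptions. Signals are given for members past 1.5-fold and the brightest of each class, and for listed genes past it with a mean signal of at least 100, up to 5 per list, with the receptors. Members outside that rule were added so that each is accounted for. Alternatives were 4 scalings, 2 floors, the floor as a pseudocount, 3 choices of probe set, both arrays above the floor, a threshold of 2-fold and, added after seeing the data, a mean signal of 64 or more. Analyses used Python 3.11.15, pandas 2.3.3 and statsmodels 0.14.6.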

Additional observations from a re-analysis of the deposited data

How the results depend on the processing

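The members' median log2 ratio stayed below 0 under all 12 alternatives, from -0.84 to -0.64, and the median of all genes moved by less than 0.1 under each of them. Under the 4 other scalings, 25 to 27 of 37 members were lower by 1.5-fold or more and 1 was higher. The backgrounds there were 9.19% to 10.8% and 7.48% to 8.81%. At 2-fold, 12 were lower (background 2.78%) and 1 was higher (2.39%). With the second-brightest measured set, which 13 members have, 7 were lower and 0 higher (backgrounds 8.63% and 12.3%). Medians were then -0.64 for members, -0.61 for type I targets and -0.64 for GTPases, the last from Iigp1 alone. With a mean signal of 64 or more, 0 were higher (5.57% of all genes of that signal), and the medians of members and of type I targets were both -0.84. With the floor at the 70th percentile 0 of 28 were higher (background 5.37%), type I targets had a median of -0.84 and regulators of -0.40. Higher members numbered 3 of 39 (background 15.9%) when the floor was the 30th percentile and 2 of 37 (8.03%) when the floor became a pseudocount. Apart from settings that leave fewer genes or a stricter threshold, the cause was not tested. Of 26 members past 1.5-fold, 25 kept their direction under every alternative that gave them a value, and 17 stayed past 1.5-fold under each. Those that did not were Ddx58, Dhx58, Ifi35, Ifih1, Ifit3, Ifitm3, Oasl1, Xaf1 and Zbp1. The exception in direction, Zbp1, turned to 0.56 with plain probe sets and with its second set. No paired analysis was possible because each group holds 1 array, and no array could be left out. Depth has no counterpart here, and signal over background limits what dim members such as Oas2, Ifit2 and Gbp2 can show.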

Other observations

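Several members lie next to each other on the chromosome, and neighbours did not always read alike. The adjacent genes Parp14, Dtx3l and Parp9 had log2 ratios of -1.49, -0.33 and -0.84. Dtx3l and Parp9 are known to share a promoter region, and whether their ratios differ was not tested. Ifit2 and Ifit3, also adjacent, had -0.57 (a bound) and -0.64, and Oasl2 and Oasl1 had -0.11 (a bound) and -0.81. A bound cannot show whether such neighbours differ. Oas2, at 1.10, adjoins Oas3, which was under the floor.

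Whether Irf9 and its partner Stat2 differ cannot be told, since the reading of Stat2 depended on the probe set. Irf9 was lower by 2.06-fold, a log2 ratio of -1.05. The brightest set of Stat2 had a log2 ratio of -0.19 and the other set one of -1.12. Irf1, with a GAS-like match from 90 to 82 bases before its start, had a log2 ratio of 0.39 (1.31-fold higher). The GTPase genes Igtp, Irgm2 and Ifi47 were 2.25-fold, 4.23-fold and 3.30-fold lower. Other GTPase genes varied. Gbp3 was at least 2.55-fold lower, and Gbp6 was lower on both sets, by 1.53-fold and by at least 2.24-fold. Iigp1 had a log2 ratio of -0.58 on its brightest set. Gbp7 was 1.16-fold higher on its brightest set and at least 5.53-fold lower on the other.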
